A study of Rattus norvegicus with 11 samples.

Results

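The 9 genes described here encode chemokine receptors carried by mononuclear leukocytes, the monocytes, macrophages, dendritic cells and lymphocytes of blood and tissue. They were taken by name: Ccr1, Ccr1l1, Ccr2, Ccr7, Xcr1, Cx3cr1, Cxcr3, Cxcr4 and Ccrl2. All 9 were found among the 23781 genes of the count table, and all 9 were among the 18049 genes that passed the filter on low counts. The lowest count of any of them in any library was 11, for Xcr1 in NC replicate 3.

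Chemokine receptors are membrane proteins that couple to inhibitory G proteins and steer a moving cell towards the source of a small secreted protein, the chemokine. CCR1 binds CCL3 and CCL5 on monocytes and neutrophils, and CCR2 binds CCL2 and brings monocytes out of the marrow into injured tissue. CX3CR1 binds the membrane-tethered CX3CL1 and marks resident macrophages and patrolling monocytes. CCR7 guides dendritic and T cells along CCL19 and CCL21 towards lymph nodes, XCR1 marks the dendritic cells that cross-present antigen, CXCR3 draws activated T and NK cells along CXCL9, CXCL10 and CXCL11, and CXCR4 retains cells along CXCL12. CCRL2 is an atypical receptor that binds chemerin without driving migration. Ccr1l1 encodes a protein similar to CCR1, named for that likeness.

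The libraries came from male Sprague Dawley rats aged 4 months with a surgical gap across the coronal suture and its bony edges, sampled at 6 weeks after surgery. The gap held an electrospun membrane of polylactic acid (PLA, 2 libraries), a porous chitosan scaffold (CTS, 3 libraries), a gelatin methacryloyl hydrogel (GelMA, 3 libraries) or no scaffold (NC, 3 libraries). The new tissue was digested with collagenase, and the cells were fixed, permeabilized, stained for Cd45 and sorted by flow cytometry as Cd45- for RNA-seq. Nothing in the labels says whether libraries of a group came from separate or pooled animals, so p-values measure only the spread between these libraries, which may be technical. Total counts ran from 22509898 to 31290849.

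The sorted cells are labelled Cd45-, and the libraries held leukocyte RNA nonetheless. Ptprc, the gene of Cd45, had 1020 and 1055 CPM (counts scaled to a common library total after TMM, a factor per library that offsets composition) in PLA, 1036 to 1272 CPM in CTS, 1138 to 1347 CPM in GelMA and 336, 1167 and 1460 CPM in NC. The library at 336 CPM, NC replicate 2, also held the highest sum of 9 mesenchymal markers, 227164 CPM, against at most 37355 CPM in the other libraries. The tests of the receptor genes were therefore also run without it, while the marker calls and the ratios of Ccl12 below were not. The chemokine receptors read the mixture of cells that passed the gate, and in such bulk libraries fewer cells of a type and less RNA per cell cannot be told apart.

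Levels between genes were compared in FPKM, counts scaled by gene length and library total, since the genes differ in length. In PLA the mean level was 439 FPKM for Ccrl2, 435 FPKM for Ccr1 and 251 FPKM for Cxcr4, then 14.6 for Ccr7, 13.7 for Ccr2, 11.4 for Ccr1l1, 3.61 for Cxcr3, 3.36 for Cx3cr1 and 0.783 FPKM for Xcr1. Ccrl2 and Ccr1 overlapped in their PLA libraries, as did Ccr7 with Ccr2 and Cxcr3 with Cx3cr1. In CTS, GelMA and NC the top gene was Cxcr4, with means of 321, 493 and 243 FPKM. Ccr1 came next, with 123 FPKM in CTS, 140 in GelMA and 109 FPKM in NC.

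Below these, CTS had Ccr2 at 54.3 FPKM above Ccrl2 at 43.5 and Ccr7 at 21.4 FPKM, and the libraries of neighbours in that order overlapped. GelMA had Ccrl2 at 102, Ccr7 at 41.9, Ccr2 at 25.1 and Cxcr3 at 21.0 FPKM, with overlap between Ccr1 and Ccrl2 and between Ccr2 and Cxcr3. NC had Ccrl2 at 21.8, Ccr2 at 18.6 and Ccr7 at 2.45 FPKM, and there only Ccr2 and Ccr7 were separated from their neighbour in every library. Xcr1 was lowest in each group, at 0.783 FPKM in PLA, 0.218 in CTS, 0.476 in GelMA and 0.0806 FPKM in NC. The gene length behind its FPKM is 12503 bases, the longest of the 9, and the shortest is 1215 bases for Ccr7. The order of the genes rests on these lengths, and the comparisons between groups do not.

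**Figure D1:**
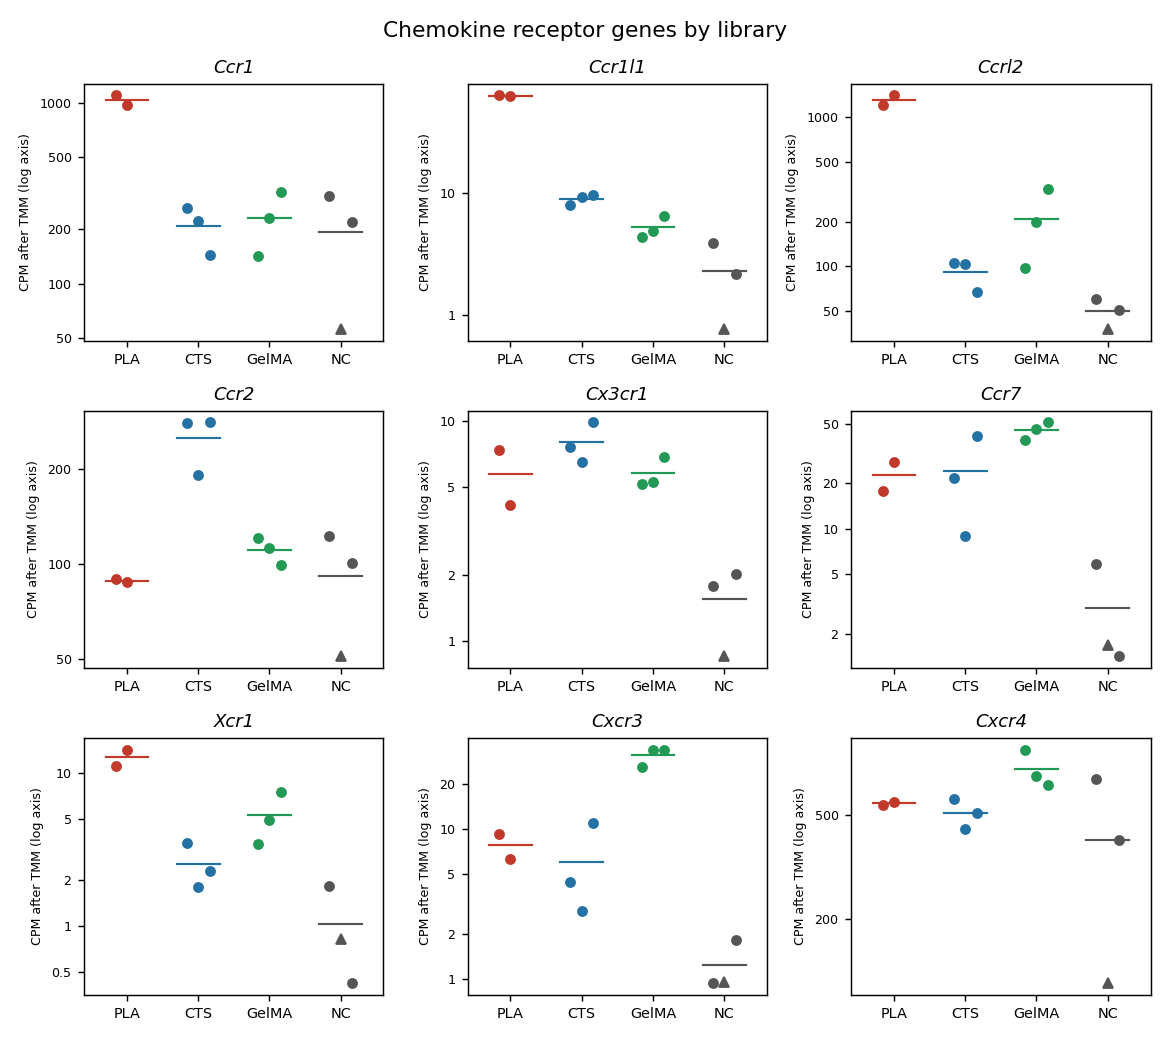
CPM after TMM of the 9 receptor genes (log axis) in each library of PLA, CTS, GelMA and NC; points are libraries, short lines are group means and the triangle is NC replicate 2. For Ccr1, Ccr1l1, Ccrl2 and Xcr1 the 2 PLA points are the top ones, the GelMA libraries are highest for Cxcr3, and the CTS libraries are highest for Ccr2.

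All 18049 genes were compared in a single edgeR quasi-likelihood model of the 11 libraries, and p-values were adjusted by Benjamini-Hochberg over the whole table. Called means that the adjusted p was below 0.05 and the log2 fold change above 1 or below −1. In PLA over NC, 7 of the 9 receptor genes were called higher, against 8.32% of all genes, and 0 were called lower, against 4.01%. In GelMA over NC, 5 were called higher, against 5.03% of all genes, and 0 lower, against 3.21%. In PLA over CTS, 4 were called higher (6.42% of all genes) and 1 lower (3.53%). In PLA over GelMA, 3 were called higher (4.61%) and 1 lower (1.47%). In CTS over GelMA, 1 was called lower (1.32% of all genes) and 0 higher (0.416%). Libraries of the compared groups did not overlap for 7 of the 9 in PLA over NC (39% of all genes), 6 in CTS over NC (14.6%), 6 in GelMA over NC (30.5%), 8 in PLA over GelMA (58.4%), 4 in CTS over GelMA (36%) and 5 in PLA over CTS (54.3%).

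CTS over NC had 0 of the 9 called by edgeR, against 0.155% of all genes called higher and 0.0222% called lower, although 7 of the 9 had an unadjusted p under 0.05. DESeq2 called 5 of the 9 on all 4 groups (2.41% of all genes) and 4 of the 9 on CTS and NC alone (1.02%), and limma on log2(FPKM + 1) called 0 (0.00841%), or 1 with the filter (0.35%). Without NC replicate 2 edgeR called 3 (Ccr1l1, Ccr2 and Cx3cr1, with 0.755% of all genes called), without NC replicate 1 it called 3 (Ccr1l1, Ccr2 and Ccr7, with 0.588%), and without CTS replicate 2 it called 3 (Ccr7, Cx3cr1 and Cxcr3, with 0.738%). The median log2 fold change of the 9 was 2.65 in PLA over NC, 1.46 in CTS over NC and 1.88 in GelMA over NC, where the medians of all genes tested were −0.11, −0.02 and −0.05. It was −0.01 in PLA over GelMA, −0.56 in CTS over GelMA and 0.36 in PLA over CTS, where those of all genes were −0.04, −0.01 and −0.03. The 3 comparisons with NC share the NC libraries, and the 3 with PLA share the PLA libraries.

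Scaling by library size alone moved the median of all genes by −0.34 in PLA over NC, −0.54 in PLA over GelMA, −0.48 in PLA over CTS, 0.20 in GelMA over NC and 0.14 in CTS over NC on the log2 scale. All genes called higher and lower then numbered 1078 and 1531 in PLA over NC, in place of 1502 and 724. They numbered 438 and 2312 in PLA over GelMA, in place of 832 and 266, and 688 and 2227 in PLA over CTS, in place of 1158 and 637. GelMA over NC had 1216 and 425, in place of 908 and 580, and CTS over GelMA had 39 and 260, in place of 75 and 239. Under that scaling 7 receptor genes were called in PLA over NC, 5 in GelMA over NC, 3 in PLA over GelMA and 4 in PLA over CTS.

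**Figure D2:**
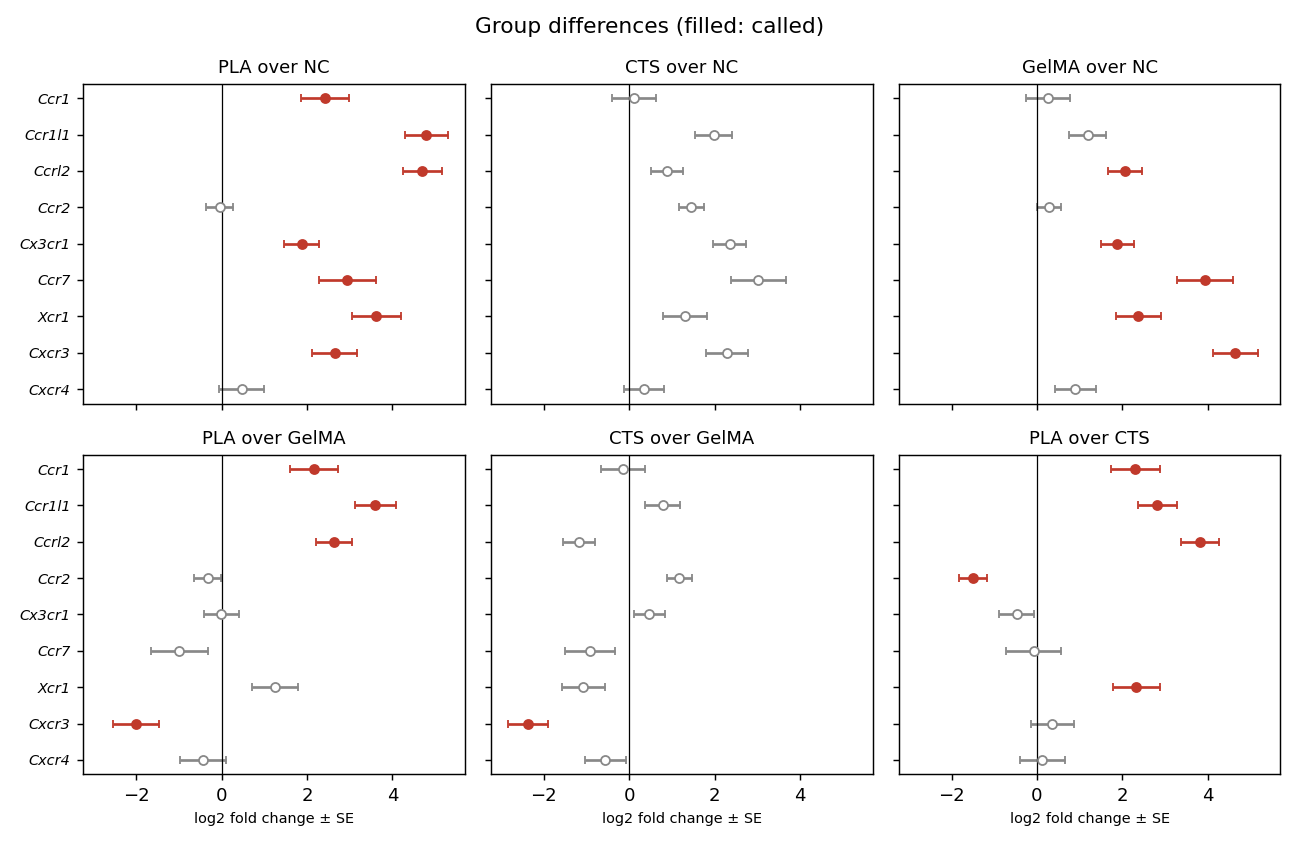
Log2 fold change of each receptor gene with its SE in the 6 comparisons, from edgeR on counts; filled red points are called and open grey points are not. Ccr1, Ccr1l1 and Ccrl2 are filled on the right in all 3 PLA panels, Cxcr3 is filled on the left in both comparisons over GelMA, and Ccr2 is filled on the left in PLA over CTS.

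Ccrl2, Ccr1 and Ccr1l1 were called higher in PLA than in each of the other groups, a pattern shared by 598 genes, 3.31% of those tested. Ccrl2 had 1200 and 1400 CPM in PLA, against 105, 105 and 67.2 CPM in CTS, 97.7, 199 and 331 CPM in GelMA and 60.8, 38.2 and 51.1 CPM in NC. Both PLA libraries lay above every other library. Its log2 fold change was 4.70 over NC (SE 0.46, edgeR adjusted p = 0.000156), 2.64 over GelMA (SE 0.43, adjusted p = 0.00494) and 3.82 over CTS (SE 0.44, adjusted p = 0.000531). Ccrl2 was also higher in GelMA than in NC, by 2.06 (SE 0.39, adjusted p = 0.0108), with the 3 GelMA libraries apart from each other by more than those of any other group. In CTS over NC it was at 0.88 (SE 0.38, adjusted p = 0.405), with no overlap between the groups.

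Ccr1l1 was measured at lower levels, with 64.0 and 63.5 CPM in PLA, against 8.06, 9.32 and 9.67 CPM in CTS, 4.36, 4.86 and 6.54 CPM in GelMA and 3.90, 0.768 and 2.18 CPM in NC. The 4 groups did not overlap with each other in any pair. The log2 fold change of Ccr1l1 was 4.80 in PLA over NC (SE 0.50, edgeR adjusted p = 0.000225), 3.601 in PLA over GelMA (SE 0.47, adjusted p = 0.00175) and 2.82 in PLA over CTS (SE 0.46, adjusted p = 0.00357). Without NC replicate 1, its highest NC library, the first became 5.41 (adjusted p = 0.00018). Ccr1l1 did not pass in CTS over NC (1.98, adjusted p = 0.112) or in GelMA over NC (1.196, adjusted p = 0.105), and without NC replicate 1 both passed (adjusted p = 0.0330 and 0.0157). Without NC replicate 2 the CTS comparison passed as well (adjusted p = 0.0342). The PLA calls of Ccrl2 and Ccr1l1 held in each of the 23 alternatives, 11 that each left out 1 library and 12 other settings.

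Ccr1 had 1099 and 973 CPM in PLA, against 263, 221 and 145 CPM in CTS, 143, 230 and 320 CPM in GelMA and 304, 56.2 and 220 CPM in NC. CTS, GelMA and NC overlapped with each other, and PLA stood above all of them. Its log2 fold change was 2.42 over NC (SE 0.57, edgeR adjusted p = 0.0185), 2.17 over GelMA (SE 0.57, adjusted p = 0.0421) and 2.31 over CTS (SE 0.57, adjusted p = 0.0251). These calls were less firm than the size of the difference. In PLA over NC, Ccr1 did not pass without PLA replicate 1 (adjusted p = 0.0904), PLA replicate 2 (0.0735) or NC replicate 3 (0.0536).

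In PLA over CTS, Ccr1 did not pass without PLA replicate 1 (adjusted p = 0.121), PLA replicate 2 (0.0987) or any CTS library (0.0635 to 0.0788). In PLA over GelMA the call of Ccr1 was kept without NC replicate 1 or NC replicate 2 only, and the adjusted p without another library ran from 0.0535 to 0.182. Beside this, the sum of 8 neutrophil markers was 8670 and 9248 CPM in PLA, 26803 to 45914 CPM in CTS, 4768 to 11718 CPM in GelMA and 8922 to 66775 CPM in NC. In PLA over NC, 1 of the 8 was called higher (8.32% of all genes) and 4 lower (4.01%). The gene called higher was Csf3r, at 1.88 (edgeR adjusted p = 0.0193). Csf3r had 926 and 812 CPM in PLA, 265 to 308 CPM in CTS, 290 to 507 CPM in GelMA and 85.2 to 320 CPM in NC. Ngp was among the 4 called lower, at −4.30 (0.0178). The part of neutrophils, which carry CCR1, was not tested. Of the 12 other settings, the call of Ccr1 was kept in 8 in PLA over NC, 5 in PLA over GelMA and 7 in PLA over CTS. The direction of Ccr1 in these 3 comparisons was the same under every alternative. In CTS over NC and GelMA over NC its log2 fold change was 0.12 (adjusted p = 0.956) and 0.26 (adjusted p = 0.784).

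Xcr1, Ccr1, Ccr1l1 and Ccr2 lie close together in the rat genome. In the order of protein-coding genes of the RefSeq annotation of GRCr8, chromosome 8 runs Ccr9, Fyco1, Cxcr6, Xcr1, Ccr1, Ccr3, Ccr1l1, Ccr2 and LOC120094308. Ccrl2 and Cx3cr1 lie on the same chromosome, 119 and 58 protein-coding genes before Ccr1, while Ccr7, Cxcr4 and Cxcr3 are on chromosomes 10, 13 and X. Neighbours in this order differed in pattern, since Ccr1 and Ccr1l1 were called higher in PLA over CTS and Ccr2, which follows them, was called lower. Genes of such a cluster can share reads with a close copy. Whether reads of Ccr1 and Ccr1l1, for example, were split between copies was not tested, so these counts carry that uncertainty.

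The promoters of the 3 genes called higher in PLA against every group, and of Ccr2, which went the other way against CTS, are shown to set the sequences beside their values. They are the 250 bases before the RefSeq start site in GRCr8, on the strand of the gene, at chr8:119914974-119915223 (minus), chr8:132439267-132439516 (minus), chr8:132469523-132469772 (minus) and chr8:132611953-132612202 (plus). Capitals mark matches on either strand to GAGGAA, the core read by the myeloid factor PU.1, to TGACTCA of AP-1 or to ACGTG, the core of hypoxia response elements.
Ccrl2: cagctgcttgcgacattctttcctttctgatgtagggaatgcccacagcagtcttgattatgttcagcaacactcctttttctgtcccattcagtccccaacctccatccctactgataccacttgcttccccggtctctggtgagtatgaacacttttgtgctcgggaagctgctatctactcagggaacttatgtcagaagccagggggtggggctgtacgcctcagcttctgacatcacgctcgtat
Ccr1: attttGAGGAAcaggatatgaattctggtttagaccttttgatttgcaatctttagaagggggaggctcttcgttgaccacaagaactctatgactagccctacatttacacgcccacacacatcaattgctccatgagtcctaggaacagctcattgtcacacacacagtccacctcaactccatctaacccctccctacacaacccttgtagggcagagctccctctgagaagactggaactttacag
Ccr1l1: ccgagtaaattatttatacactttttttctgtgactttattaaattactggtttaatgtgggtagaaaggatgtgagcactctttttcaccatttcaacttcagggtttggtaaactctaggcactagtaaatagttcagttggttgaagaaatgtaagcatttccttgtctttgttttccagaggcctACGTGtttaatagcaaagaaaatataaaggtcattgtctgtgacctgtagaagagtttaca
Ccr2: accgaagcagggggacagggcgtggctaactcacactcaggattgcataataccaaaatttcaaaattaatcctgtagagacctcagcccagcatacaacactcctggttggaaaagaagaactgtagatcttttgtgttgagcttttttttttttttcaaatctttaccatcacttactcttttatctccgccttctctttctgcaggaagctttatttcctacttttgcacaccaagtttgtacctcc

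Of the 9 genes, 8 matched an entry of 300 bases (250 before and 50 after the start site) and were searched over that window. GAGGAA was found in Ccr1, from position −245 from the start site, and Xcr1, from −56, and in 27.6% of the 33469 promoters of that length. ACGTG was found in Ccr1l1, from −61, and in 19.3% of all promoters. The Ccr1l1 entry opens with ATG, the start codon, at its start site. That site may therefore be the start of the coding part, and the bases before it may not be the promoter. TGACTCA was found in 0 of the 8 and in 4.63% of all promoters. Ccrl2 and Ccr2 held none of these letters. No promoter of the 8 held more than 1 match, so no matches overlapped. A match describes letters alone.

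Ccr2, the receptor of inflammatory monocytes, was highest in CTS. It had 89.9 and 87.7 CPM in PLA, against 281, 192 and 282 CPM in CTS, 122, 113 and 99.9 CPM in GelMA and 123, 51.3 and 101 CPM in NC. No library of another group reached those of CTS. Ccr2 fell by 1.503 on the log2 scale in PLA over CTS (SE 0.33, edgeR adjusted p = 0.0153), and the call was lost without PLA replicate 1 (adjusted p = 0.112) or PLA replicate 2 (0.121). CTS over NC gave 1.46 (SE 0.29, adjusted p = 0.0726) and CTS over GelMA gave 1.17 (SE 0.28, adjusted p = 0.0642). Both passed without NC replicate 1 (adjusted p = 0.0453 and 0.0354) and without NC replicate 2 (0.0260 and 0.00139). Between PLA and NC, Ccr2 differed by −0.05 (SE 0.32, adjusted p = 0.945), with overlapping libraries.

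Cx3cr1, on resident macrophages and patrolling monocytes, was at low levels in all groups. It had 7.34 and 4.13 CPM in PLA, 7.62, 6.48 and 9.80 CPM in CTS and 5.14, 5.28 and 6.86 CPM in GelMA, against 1.78, 0.859 and 2.03 CPM in NC. The libraries of each scaffold lay above all 3 of NC, and the scaffolds overlapped with each other. Cx3cr1 was higher over NC in PLA by 1.87 (SE 0.41, edgeR adjusted p = 0.0134) and in GelMA by 1.88 (SE 0.38, adjusted p = 0.0140), and in CTS it stood at 2.35 (SE 0.39, adjusted p = 0.0515). The PLA call was lost without PLA replicate 1 (adjusted p = 0.135) and the GelMA call without GelMA replicate 3 (0.0663). Of 12 other settings the PLA call was kept in 6, with an adjusted p of up to 0.159, and the GelMA call in 10. The CTS difference passed without NC replicate 2 (adjusted p = 0.0342) or CTS replicate 2 (0.0436).

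The sum of 12 monocyte and macrophage markers was 4933 and 5553 CPM in PLA, 10600 to 13179 CPM in CTS, 5780 to 9262 CPM in GelMA and 2755 to 11266 CPM in NC, and most of it was Lyz2, a lysozyme gene shared with neutrophils. Of the 12 genes, 4 were called higher in PLA over NC (8.32% of all genes), 1 in CTS over NC (0.155%) and 8 in GelMA over NC (5.03%). In these comparisons 0 were called lower, against 4.01%, 0.0222% and 3.21% of all genes. Adgre1, the F4/80 macrophage antigen, was higher by 2.80 in PLA over NC (edgeR adjusted p = 5.75e-05) and by 4.39 in GelMA over NC (4.59e-05), and stood at −1.59 in PLA over GelMA (0.00306). The part of these cells in the receptor results was not tested.

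Ccr7, the receptor of migrating dendritic cells and naive T cells, was higher with the scaffolds. It had 17.8 and 27.8 CPM in PLA, 21.6, 8.95 and 41.6 CPM in CTS and 39.0, 45.8 and 51.0 CPM in GelMA, against 5.77, 1.67 and 1.42 CPM in NC. All scaffold libraries lay above those of NC. Ccr7 rose by 2.95 in PLA over NC (SE 0.67, edgeR adjusted p = 0.0157) and by 3.94 in GelMA over NC (SE 0.66, adjusted p = 0.00568). Without NC replicate 1, the highest of NC, these values became 3.88 and 4.87. The PLA call was lost without PLA replicate 2 (adjusted p = 0.0997) or NC replicate 3 (0.0539), while that of GelMA held in each of its 23 alternatives. In CTS over NC the log2 fold change of Ccr7 was 3.03 (SE 0.64, adjusted p = 0.0906), and it passed without NC replicate 1 (0.0344) or CTS replicate 2 (0.0373), its lowest CTS library.

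Xcr1, the marker of cross-presenting dendritic cells, had 11.1 and 14.2 CPM in PLA, against 3.46, 1.80 and 2.29 CPM in CTS, 3.42, 4.95 and 7.53 CPM in GelMA and 1.82, 0.813 and 0.421 CPM in NC. PLA lay above every other library. Xcr1 was higher by 3.63 in PLA over NC (SE 0.58, edgeR adjusted p = 0.00259) and by 2.32 in PLA over CTS (SE 0.55, adjusted p = 0.0212), and in PLA over GelMA it stood at 1.25 (SE 0.54, adjusted p = 0.183). GelMA over NC gave 2.38 (SE 0.53, adjusted p = 0.0209). Without NC replicate 1 the differences over NC became 4.36 in PLA and 3.11 in GelMA.

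The PLA over NC call of Xcr1 was kept without any single library. Its call in PLA over CTS was lost without PLA replicate 1 (adjusted p = 0.0818), PLA replicate 2 (0.132), CTS replicate 2 (0.0826) or CTS replicate 3 (0.0628). Its call in GelMA over NC was lost without GelMA replicate 2 (0.0673), GelMA replicate 3 (0.0933) or NC replicate 3 (0.0553). Of 11 other settings the call of Xcr1 was kept in 9 in PLA over NC, 8 in PLA over CTS and 8 in GelMA over NC. Of 9 dendritic cell markers, 4 were called higher in PLA over NC (8.32% of all genes), 5 in GelMA over NC (5.03%) and 1 in PLA over CTS (6.42%). Their sum was 1319 and 1365 CPM in PLA, 580 to 776 CPM in CTS, 907 to 1123 CPM in GelMA and 220 to 526 CPM in NC. Most of the PLA sum was a single gene, Itgax. It had 851 and 898 CPM in PLA, 262 to 328 CPM in CTS, 250 to 403 CPM in GelMA and 92.6 to 363 CPM in NC. Clec9a, a lectin of the same dendritic cells as XCR1, had 6.92 and 4.90 CPM in PLA, 2.66 to 7.93 CPM in CTS, 8.32 to 20.9 CPM in GelMA and 1.88 to 4.54 CPM in NC. PLA was thus highest for Xcr1 and GelMA for Clec9a, and the part of these cells was not tested.

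Cxcr3, the receptor of activated T and NK cells, was highest in GelMA. It had 9.20 and 6.27 CPM in PLA, 4.40, 2.84 and 10.8 CPM in CTS and 25.7, 33.6 and 33.6 CPM in GelMA, against 0.934, 0.949 and 1.80 CPM in NC. The GelMA libraries lay above all others and the NC libraries below all others. Its log2 fold change was 4.65 in GelMA over NC (SE 0.53, edgeR adjusted p = 0.000776), which was kept in each of its 23 alternatives, and 2.65 in PLA over NC (SE 0.53, adjusted p = 0.00834), which was lost without PLA replicate 1 (0.0655). CTS over NC stood at 2.29 (SE 0.49, adjusted p = 0.0997) and passed without CTS replicate 2 (0.0373).

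Set against GelMA, Cxcr3 was lower in PLA, at −2.001 (SE 0.54, edgeR adjusted p = 0.0461), and in CTS, at −2.36 (SE 0.47, adjusted p = 0.0350). The PLA call was lost without either PLA library (adjusted p = 0.172 and 0.287), any GelMA library (0.0980 to 0.119) or CTS replicate 1 (0.0614). The CTS call of Cxcr3 was lost without either PLA library (0.0655 and 0.0652), CTS replicate 1 (0.151), CTS replicate 2 (0.113) or any GelMA library (0.101 to 0.131). Without CTS replicate 3 its value became −3.06. Between PLA and CTS it did not pass (0.36, SE 0.50, adjusted p = 0.696), with overlapping libraries.

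The sum of 11 T and NK cell markers was 531 and 570 CPM in PLA, 216 to 402 CPM in CTS, 922 to 1075 CPM in GelMA and 117 to 186 CPM in NC. In PLA over NC, 9 were called higher (8.32% of all genes) and 1 lower (4.01%). In GelMA over NC 10 were called higher (5.03%), and in CTS over GelMA 6 were called lower (1.32%). The sum was highest in GelMA, but single markers differed: Nkg7, of NK and cytotoxic cells, had 16.4 and 20.4 CPM in PLA, 56.2 to 73.0 CPM in CTS, 45.6 to 47.9 CPM in GelMA and 17.4 to 96.4 CPM in NC, and Gzmb, granzyme B, had 54.2 and 34.1 CPM in PLA, 34.8 to 43.3 CPM in CTS, 26.1 to 39.5 CPM in GelMA and 6.53 to 18.3 CPM in NC. Cd3d, a subunit of the T cell receptor complex, was higher by 2.44 in PLA over NC (edgeR adjusted p = 0.00831) and by 4.53 in GelMA over NC (0.000661). The sum of 5 B cell markers was 26.9 and 43.0 CPM in PLA, 66.1 to 102 CPM in CTS, 232 to 337 CPM in GelMA and 17.8 to 36.6 CPM in NC. The part of these cells in the level of Cxcr3 was not tested.

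**Figure D3:**
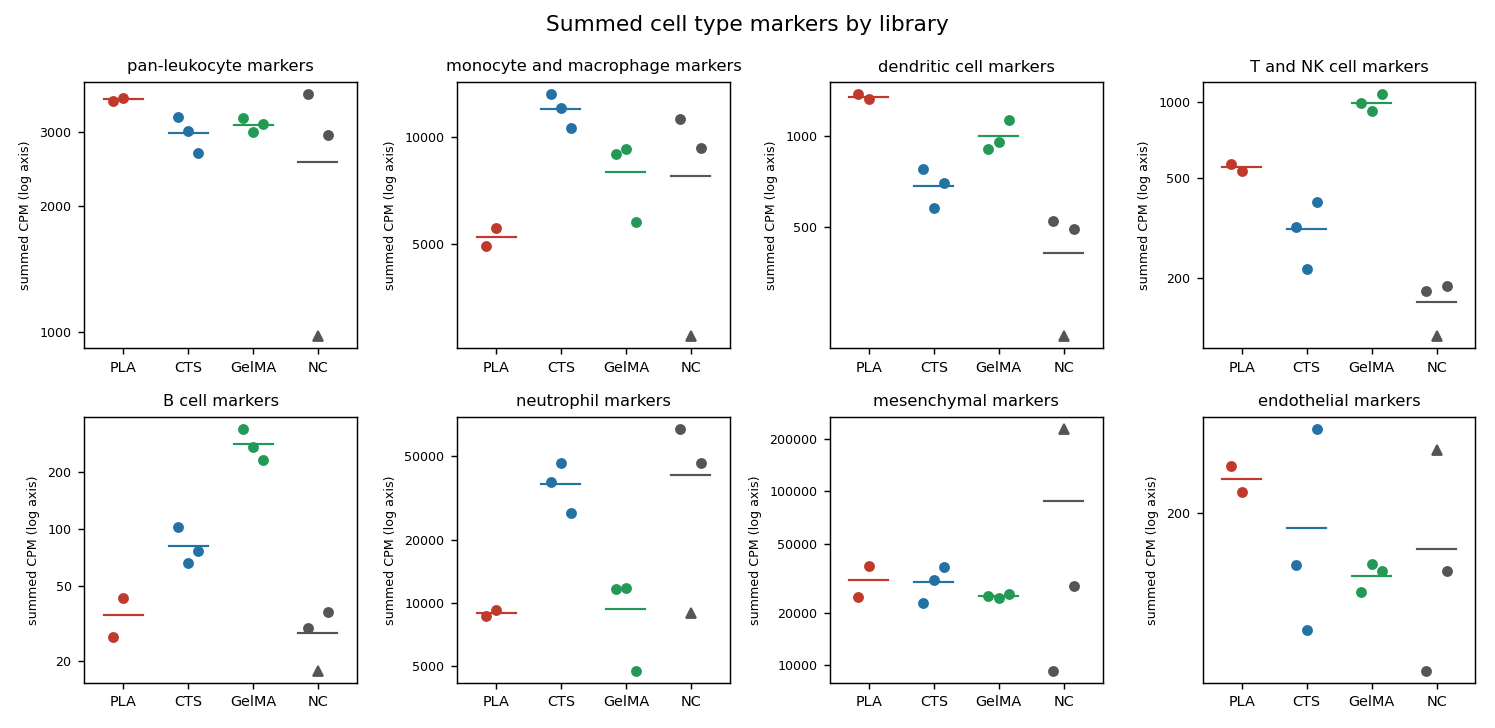
Summed CPM of 8 cell type marker lists (log axis) in each library of PLA, CTS, GelMA and NC; points are libraries, short lines are group means and the triangle is NC replicate 2. The T and NK cell sum is highest in GelMA (922 to 1075 CPM), and the triangle is highest for mesenchymal markers (227164 CPM). The dendritic cell sum is highest in PLA (1319 and 1365 CPM), where most of it is Itgax (851 and 898 CPM).

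Cxcr4, the receptor of CXCL12, was called in none of the 6 comparisons. It had 545 and 558 CPM in PLA, 573, 441 and 506 CPM in CTS and 886, 705 and 650 CPM in GelMA, against 685, 113 and 400 CPM in NC. The lowest library was NC replicate 2, and GelMA overlapped with NC through NC replicate 1. The log2 fold change of Cxcr4 lay between −0.56 (CTS over GelMA, edgeR adjusted p = 0.625) and 0.90 (GelMA over NC, SE 0.48, adjusted p = 0.248). GelMA over NC passed without NC replicate 1 (adjusted p = 0.0453).

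Each receptor was also set against Ptprc in the same library, as CPM per 100 CPM of Ptprc, which describes its level relative to that leukocyte gene. Ptprc itself was called in none of the 6 comparisons, with log2 fold changes from −0.27 to 0.34. Of 5 pan-leukocyte markers, 1 was called higher in PLA over NC (8.32% of all genes) and 0 lower (4.01%). That gene was Cd53, at 1.99 (edgeR adjusted p = 0.0103), while Coro1a stood at −1.16 (0.174). Cd53 had 1552 and 1582 CPM in PLA, 488 to 575 CPM in CTS, 603 to 748 CPM in GelMA and 152 to 565 CPM in NC. The ratios thus depend on the marker chosen, and ratios to Cd53 were not taken. Ccrl2 stood at 125 ± 10.6 in PLA (SD, n = 2), 7.86 ± 1.23 in CTS, 17.0 ± 9.51 in GelMA and 6.63 ± 4.10 in NC (SD, n = 3 each). Ccr1 was at 100 ± 11.02 in PLA, 17.8 ± 3.45 in CTS, 18.7 ± 7.50 in GelMA and 18.8 ± 2.06 in NC. PLA was apart from the other 3 groups for both.

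Per 100 CPM of Ptprc, Ccr1l1 was at 6.15 ± 0.18 in PLA, 0.785 ± 0.1498 in CTS, 0.423 ± 0.098 in GelMA and 0.228 ± 0.040 in NC. Ccr2 was at 8.56 ± 0.36 in PLA, 21.8 ± 5.50 in CTS, 8.96 ± 1.00 in GelMA and 10.8 ± 3.88 in NC, and Cxcr3 was at 0.749 ± 0.218 in PLA, 0.545 ± 0.439 in CTS, 2.51 ± 0.54 in GelMA and 0.167 ± 0.110 in NC. For these 5 genes the group highest by CPM was also highest per Ptprc. Cxcr4 was at 53.2 ± 0.43 in PLA, 43.7 ± 5.91 in CTS, 59.8 ± 7.31 in GelMA and 38.3 ± 7.49 in NC, and NC replicate 2, lowest by CPM, stood at 33.7 beside NC replicate 3 at 34.2.

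Set against the summed monocyte and macrophage markers, as CPM per 1000 CPM of that sum, Ccr2 no longer stood apart in CTS. It ran from 15.8 to 18.2 in PLA, 15.9 to 26.6 in CTS, 12.2 to 17.3 in GelMA and 10.8 to 18.6 in NC, so that CTS overlapped with each other group. Most of the marker sum was Lyz2, which is shared with neutrophils. It had 3079 and 3711 CPM in PLA, 9389 to 12098 CPM in CTS, 3919 to 7268 CPM in GelMA and 2306 to 10182 CPM in NC. The ratios on this scale thus largely follow Lyz2, and ratios to the sum without it were not taken. Cxcr4 ran from 101 to 111 in PLA, 36.4 to 47.7 in CTS, 76.1 to 113 in GelMA and 41.1 to 60.8 in NC, with PLA and GelMA overlapping. Ccr1 ran from 175 to 223 in PLA, 13.6 to 19.96 in CTS, 16.0 to 55.4 in GelMA and 20.4 to 27.0 in NC, and Cxcr3 from 1.13 to 1.87 in PLA, 0.235 to 1.02 in CTS, 2.88 to 5.82 in GelMA and 0.0829 to 0.344 in NC. On this scale PLA was still above all other libraries for Ccr1, and GelMA for Cxcr3.

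**Figure D4:**
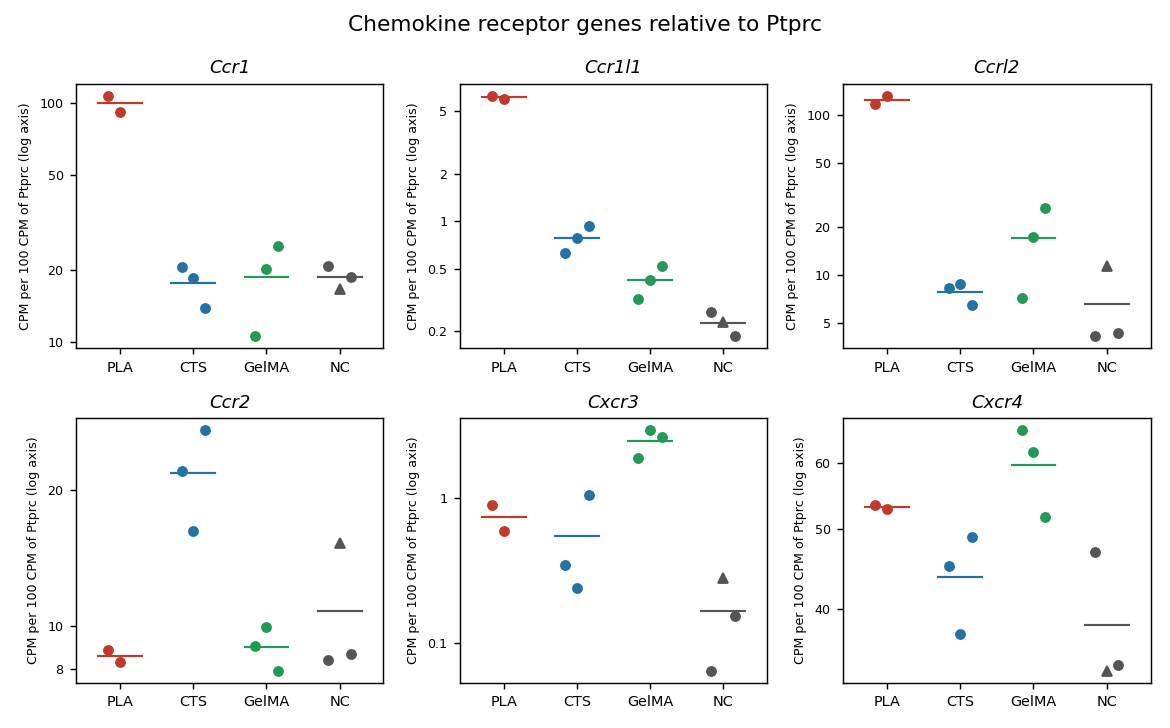
CPM of 6 receptor genes per 100 CPM of Ptprc (log axis) in each library of PLA, CTS, GelMA and NC; points are libraries, short lines are group means and the triangle is NC replicate 2. PLA is apart for Ccr1 (mean 100), Ccr1l1 (6.15) and Ccrl2 (125), CTS is highest for Ccr2 (21.8) and GelMA for Cxcr3 (2.51).

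Of 17 ligand genes of these receptors, 5 were called higher in PLA over NC, against 8.32% of all genes. In CTS over NC 1 was called higher (0.155%), and in GelMA over NC 6 (5.03%). PLA over GelMA had 2 called higher (4.61%) and 1 lower (1.47%). PLA over CTS had 2 called higher (6.42%), and CTS over GelMA had 1 called lower (1.32%). Ccl3, a ligand of CCR1, had 7710 and 7749 CPM in PLA, against 411, 253 and 315 CPM in CTS, 585, 757 and 1023 CPM in GelMA and 392.3, 85.9 and 263 CPM in NC. Ccl3 was called higher in PLA against each group (23 of 23 alternatives each). Ccr1 was also called higher in PLA against each group, but less firmly. Its calls were kept in 16 of 23 alternatives over NC, 7 over GelMA and 13 over CTS. The call of Ccl3 in GelMA over NC (1.67, edgeR adjusted p = 0.0460) was kept in 8 of 23 alternatives, where the adjusted p reached 0.165. Mif, whose protein binds CXCR4, had 74.5 and 84.9 CPM in PLA, against 15.5 to 22.7 CPM in CTS, 21.1 to 29.9 CPM in GelMA and 13.2 to 15.8 CPM in NC. Mif was higher in PLA by 2.44 over NC, 1.57 over GelMA and 2.08 over CTS (SE 0.22, 0.21 and 0.21, adjusted p = 7.93e-05, 0.00190 and 0.000242).

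Ccl9, a rodent ligand of CCR1, had 44.8 and 53.6 CPM in PLA, 44.9, 13.5 and 67.6 CPM in CTS and 87.8, 79.6 and 72.2 CPM in GelMA, against 5.601, 1.76 and 2.30 CPM in NC. It was higher with each scaffold, by 3.93 in PLA over NC (SE 0.62, edgeR adjusted p = 0.00235), 3.70 in CTS over NC (SE 0.59, adjusted p = 0.0474) and 4.63 in GelMA over NC (SE 0.61, adjusted p = 0.00164), and without NC replicate 1 these became 4.59, 4.36 and 5.29. The CTS call of Ccl9 was kept in 8 of 23 alternatives, with an adjusted p of up to 0.471. Ccl5, a ligand of CCR1, had 46.0 and 34.8 CPM in PLA, 33.9, 9.39 and 30.1 CPM in CTS and 157, 145 and 140 CPM in GelMA, against 9.76, 8.36 and 14.9 CPM in NC. Its groups were ordered like those of Cxcr3, with GelMA highest (3.75 over NC, SE 0.44, adjusted p = 0.000889).

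Ccl5 was lower than in GelMA in PLA, at −1.87 (edgeR adjusted p = 0.0377, kept in 16 of 23 alternatives), and in CTS, at −2.59 (adjusted p = 0.0176, kept in 18 of 23), and among omissions of 1 library the losses came without either PLA or any GelMA library in PLA and without CTS replicate 1 or any GelMA library in CTS. Ccl5 in PLA over NC (1.88, adjusted p = 0.0182) was lost without either PLA library, where the adjusted p reached 0.119. Ccl12, a ligand of CCR2 in rodents, had 188 and 53 counts in PLA, 77, 15 and 217 counts in CTS and 93, 134 and 118 counts in GelMA, against 0, 0 and 1 count in NC. The ratio of its pooled CPM to NC was 365 in PLA (exact 95% interval 64.9 to 14500), 231 in CTS (41.2 to 9160) and 247 in GelMA (44.0 to 9770), intervals that cover counting error only. Ccl12 was called in PLA and GelMA.

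Of the ligands of CXCR3 and XCR1, Cxcl11 (3.30, edgeR adjusted p = 0.0398) and Xcl1 (3.61, adjusted p = 0.0490) were called in GelMA over NC. Both calls were lost without GelMA replicate 3 and under most other omissions. Of the 11 omissions of 1 library, the Cxcl11 call was lost in 9 and the Xcl1 call in 8. The adjusted p reached 0.149 for Cxcl11 and 0.132 for Xcl1. Of all 23 alternatives, the Cxcl11 call was kept in 7 and the Xcl1 call in 10. Without GelMA replicate 3 Cxcl11 stood at 2.46, and without NC replicate 1 Xcl1 stood at 5.23. Cxcl9 had 1.16 and 2.66 CPM in PLA, 3.22 to 13.5 CPM in CTS, 16.8 to 36.0 CPM in GelMA and 0.552 to 14.0 CPM in NC, and no comparison of it passed. The ligands Ccl2, Ccl6, Ccl7, Ccl19, Ccl21, Cx3cl1, Cxcl9, Cxcl10, Cxcl12 and Rarres2, the gene of chemerin, did not pass in any of the 6 comparisons with edgeR. Ccl2, the ligand of CCR2, had 679 and 905 CPM in PLA, 439 to 679 CPM in CTS, 289 to 515 CPM in GelMA and 423 to 1744 CPM in NC, the highest in NC replicate 2.

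**Figure D5:**
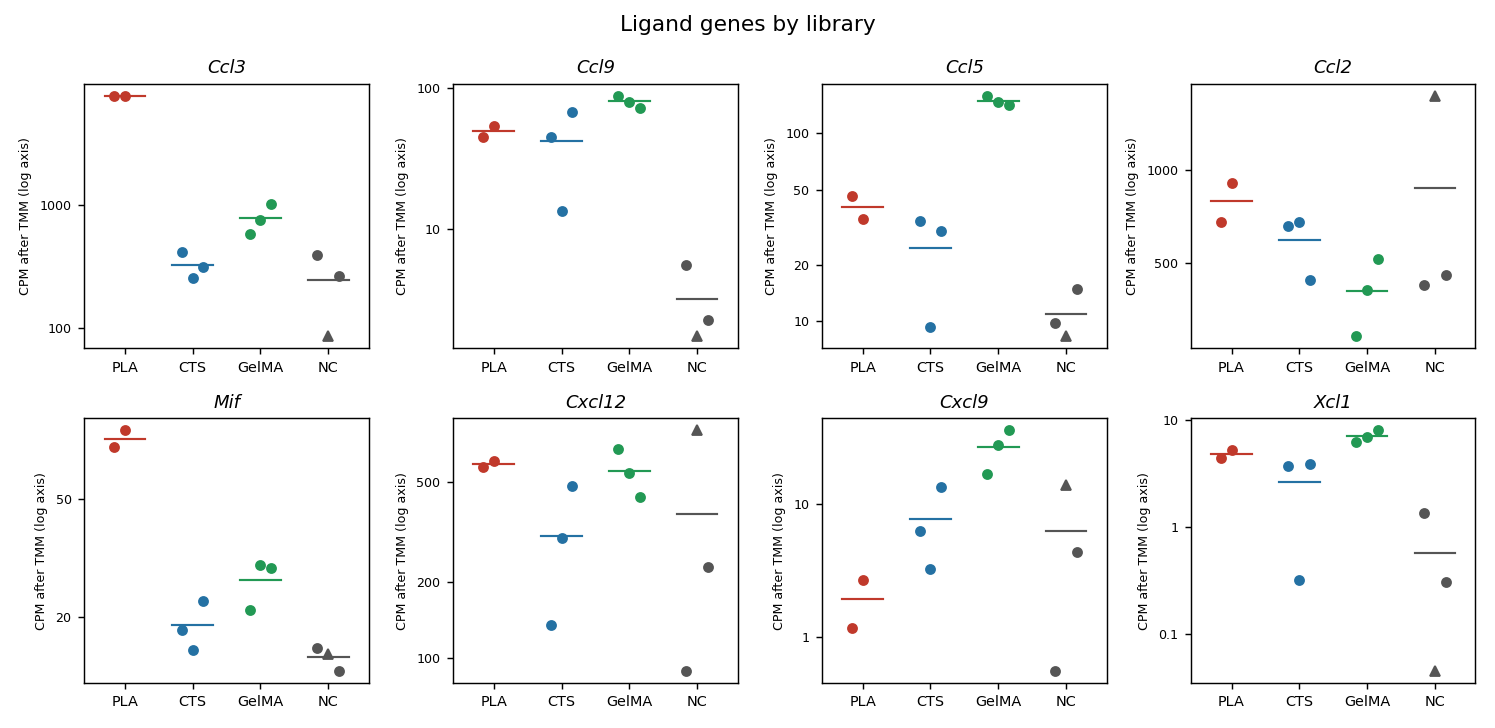
CPM after TMM of 8 ligand genes (log axis) in each library of PLA, CTS, GelMA and NC; points are libraries, short lines are group means and the triangle is NC replicate 2. Ccl3 (7710 and 7749 CPM) and Mif (74.5 and 84.9 CPM) are highest in both PLA libraries, Ccl5 is highest in GelMA (140 to 157 CPM), and Ccl9 in NC lies below every scaffold library.

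Among 16 other chemokine receptor genes, 15 were tested. Of these, 6 were called higher in PLA over NC (8.32% of all genes) and 8 in GelMA over NC (5.03%). Ccr4, Ccr6, Ccr8, Cxcr5 and Cxcr6 were called higher in both. Ccr9 and Cmklr1, the signalling receptor of chemerin, were called higher in GelMA over NC alone of the 6. Cxcr6, on effector T and NKT cells, had 15.2 and 13.2 CPM in PLA, 1.93 to 7.15 CPM in CTS, 32.9 to 42.9 CPM in GelMA and 0 to 0.995 CPM in NC, and Ccr8, on regulatory T cells, had 10.2 and 8.64 CPM in PLA, 0.569 to 5.93 CPM in CTS, 19.5 to 25.4 CPM in GelMA and 0.316 to 1.02 CPM in NC. Both had the order of Cxcr3. In PLA over NC their log2 fold changes were 4.54 and 3.88 (edgeR adjusted p = 0.00561 and 0.00786), and in GelMA over NC 5.90 and 5.09 (0.00247 and 0.00305). In CTS over NC, PLA over GelMA, CTS over GelMA and PLA over CTS, edgeR called 0 of the 15, with 7, 2, 8 and 2 at an unadjusted p under 0.05, and DESeq2 on all 4 groups called 5, 2, 7 and 1, against 2.41%, 7.78%, 5.1% and 11.2% of all genes. The PLA calls of Ccr4, Ccr6 and Cxcr5 were kept in 16 of 23 alternatives each and that of Cxcr6 in 22, and the GelMA call of Ccr9 was kept in 11.

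Of 18 downstream genes of G protein, kinase, arrestin and RGS steps, 4 were called higher (8.32% of all genes) and 1 lower (4.01%) in PLA over NC. In GelMA over NC 3 were called higher (5.03%), and in PLA over GelMA 2 (4.61%). In PLA over CTS 1 was called higher (6.42%) and 1 lower (3.53%). Ptk2b, the kinase Pyk2, was higher in PLA over NC by 2.26 (edgeR adjusted p = 0.000643) and over CTS by 1.87 (adjusted p = 0.00238), each kept in 23 of 23 alternatives. Its call in PLA over GelMA (1.16, adjusted p = 0.0323) was kept in 10 of 23, with an adjusted p of up to 0.328. Rgs1 and Rgs2, brakes on G protein signals, were higher in GelMA over NC by 1.70 and 1.45 (adjusted p = 0.00277 and 0.00248, 23 of 23 alternatives each). In CTS over NC and CTS over GelMA, 0 of the 18 were called by edgeR, with 4 and 7 at an unadjusted p under 0.05, and DESeq2 on all 4 groups called 0 and 1, against 2.41% and 5.1% of all genes.

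The genes most like each receptor were those with the highest Pearson r of log2 CPM over the 11 libraries, taken from genes whose average log2 CPM reached 3. The groups differ, so r describes the shared group pattern as well as the spread within groups. For Cxcr3 they were Gimap4 (r = 0.986), Cd3d (0.983) and Il2rb (0.978), all genes of lymphocytes. For Cxcr4 they were Laptm5 (0.983), Cyth4 (0.981) and Itgal (0.979), of which Laptm5 is a general leukocyte gene and Itgal the leukocyte integrin LFA-1. For Ccr7 they were Ccl9 (0.985), Clec4a1 (0.983) and the macrophage gene Cd68 (0.973).

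For Cx3cr1 the most alike were St14 (r = 0.940), Pld4 (0.929) and Ms4a6a (0.927), for Xcr1 the MHC class I gene RT1-CE4 (0.970), Cybc1 (0.967) and the NF-κB subunit gene Rel (0.962), and for Ccrl2 LOC102550940 (0.994), Cass4 (0.989) and Neurl3 (0.984). For Ccr1 they were RGD1307182 (0.991), Mboat7 (0.990) and Spata13 (0.990), for Ccr1l1 LOC100911813 (0.981), Ube2a (0.978) and Rbm47 (0.974), and for Ccr2 Eif2s1 (0.951) and LOC100912659 (0.933). Among the 9 receptors, the highest r were 0.904 for Xcr1 with Ccrl2 and 0.888 for Ccr1 with Ccr1l1. Next came 0.8805 for Ccr1l1 with Ccrl2, 0.8787 for Ccr1 with Ccrl2 and 0.8784 for Ccr7 with Cxcr3. The lowest were −0.21 for Ccr2 with Ccrl2 and −0.02 for Ccr2 with Ccr1, so Ccr2 stood apart from the receptors that were highest in PLA.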

How the data were processed

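RNA-seq was available for 11 libraries of Cd45- sorted cells. Per the labels, the tools of the authors were fastp, HISAT2, HTSeq and DESeq, without versions, on the build mRatBN7.2. The deposited tables hold raw counts and FPKM for 23781 genes, without positions. FPKM here equals count over gene length and library total, with no composition factor.

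The count model was edgeR 4.0.16 in R 4.3.3: filterByExpr (minimum count 10), TMM factors (0.772 to 1.14), a robust quasi-likelihood fit with group as its only term, and Benjamini-Hochberg adjustment. SE is the log2 fold change over the square root of F. The steps were tested on simulated data. Alternatives were RLE or library size for scaling, all genes kept, calls without the fold limit or at 0.01, 2-group fits, DESeq2 1.42.0, limma 3.58.1 on log2(FPKM + 1) or (FPKM + 0.1), the replicate block and omission of each library. Figures were drawn with matplotlib 3.10.9.

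The receptors and lists were chosen with earlier results of these data known. Named genes were the 9 receptors, Ptprc, every ligand, up to 2 called genes per direction from other lists, and the 3 most alike genes per receptor. Clec9a, Lyz2, Coro1a, Itgax, Ccr4, Ccr6, Cxcr5, Ccr9 and Cmklr1 were named after their values were seen. A few genes that these rules name are not reported here. Replicates differed by more than sampling noise.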

Additional observations from a re-analysis of the deposited data

How the results depend on the processing

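Of the 22 calls of receptor genes, 10 were kept without any single library and 8 under every alternative. Counts of receptor genes called without 1 library ran from 4 to 7 in PLA over NC, 0 to 3 in CTS over NC, 3 to 7 in GelMA over NC, 2 to 4 in PLA over GelMA, 0 to 2 in CTS over GelMA and 2 to 5 in PLA over CTS. With the share of all genes called in brackets, CTS over NC (0.177%) had 1 called with library size alone (0.471%), 1 without the filter (0.269%), 5 and 4 with DESeq2 on all 4 and on the 2 groups (2.41% and 1.02%), and 1 with limma on filtered log2(FPKM + 1) (0.35%). CTS over GelMA (1.74%) had 2 without the filter (1.35%), 2 with edgeR on the 2 groups (9.57%), 3 and 4 with DESeq2 on all 4 and on the 2 groups (5.1% and 8.89%), and 0 at an adjusted p under 0.01 (0.194%). At that threshold PLA over NC had 4 (5.85%), GelMA over NC 2 (3.01%), PLA over GelMA 2 (2.55%) and PLA over CTS 2 (4.68%). On the 2 groups alone edgeR called 2 in PLA over NC (3.75%) and 2 in GelMA over NC (4.02%). Limma on log2(FPKM + 1) called 3 in PLA over NC (5.34%) and 3 in PLA over CTS (7.35%), and 3 in PLA over CTS with the filter (16%). The causes were not tested.

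Replicate numbers did not pair the libraries: 1 of 15 same-numbered pairs had deviations correlated over 0.1 (r from −0.11 to 0.12). With the replicate block, PLA over GelMA had 2 receptor genes called in place of 4 (3.97% of all genes), and Cx3cr1 there was at 0.11, Ccr2 in PLA over NC at 0.063 and Ccr7 in PLA over CTS at 0.24.

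The remaining changes of sign were in uncalled values. Cx3cr1 in PLA over GelMA was at 0.037 with RLE and with DESeq2 on all 4 groups, 0.013 with edgeR and 0.024 with DESeq2 on the 2 groups. Ccr2 in PLA over NC was at 0.010 with edgeR on the 2 groups. In PLA over CTS, library size alone gave −0.11 for Cxcr3 and −0.36 for Cxcr4, and limma gave −0.35 for Cxcr4 with a pseudocount of 1, 0.1 or 1 and a filter. Without 1 library, values that changed sign ran from −0.33 to 0.22 (Ccr2) in PLA over NC, −0.32 to 0.60 (Ccr1) and −0.10 to 0.98 (Cxcr4) in CTS over NC, −0.18 to 0.74 (Ccr1) and −0.0066 to 0.55 (Ccr2) in GelMA over NC, −0.49 to 0.34 (Cx3cr1) in PLA over GelMA, −0.36 to 0.20 (Ccr1) in CTS over GelMA, and −0.51 to 0.52 (Ccr7), −0.017 to 1.04 (Cxcr3) and −0.0094 to 0.17 (Cxcr4) in PLA over CTS. PLA has 2 libraries, and without either the other is assumed to vary like the other groups. Levels near 1 CPM in NC (Xcr1, Cx3cr1, Cxcr3) rest on few counts.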
